A study of Mus musculus with 10 samples.

Results

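The testis-specific serine kinases Tssk1, Tssk2, Tssk3, Tssk4, Tssk5 and Tssk6, together with their substrate Tsks, were followed across mouse sperm and testes. Members were matched by gene symbol, in a choice made with earlier results of these data known, and the values of their RefSeq mRNAs were summed by gene. All 7 members were listed in at least 1 sample, among 69572 genes of the series, of which 16082 carried RefSeq mRNA identifiers. Values are expected counts, which estimate the number of sequenced fragments that came from a gene, and FPKM, which divide these by transcript length and library size and so allow levels to be compared between genes.

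Total RNA depleted of ribosomal RNA was sequenced strand-specifically from both ends in 10 samples of C57BL/6 mice aged 3 to 5 months per the labels. The study's methods give a lower age range and the substrain C57BL/6J for the controls, and this difference is not settled here. Mice received 1 intraperitoneal injection of cadmium chloride at 3 mg/kg or of saline and were killed on day 35. Sperm, which in the controls had swum out of the vas deferens and cauda epididymis, gave 4 control samples and 2 cadmium samples, and testes gave 2 control and 2 cadmium samples. For the control testes, the study's methods describe extraction from a weighed amount of tissue and do not say which part of the organ it was. All mice were of the same strain, and the groups differed only in tissue and injection as labelled. Each control sperm sample was a pool of several mice, and per the study's methods the control testes were taken from the same mice, so these groups share animals although the tests treat their samples as independent. Which testes sample goes with which pool, and from which mice the cadmium samples came, are not given in the sources used here. The p-values therefore measure the spread between these samples, which may be partly technical. Control sperm pool 1 was left out of the study's own analysis and is left out of group means and main tests here, but its values are given.

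TSSK proteins are serine/threonine kinases made after meiosis, in spermatids and, for some members, into mature sperm. TSSK1 and TSSK2 bind and phosphorylate TSKS and are required together for spermatid shaping and male fertility, and TSSK6 is known for its part in chromatin condensation, when histones give way to protamines. Transcription is silenced in late spermatids, so the RNA of mature sperm is held to be carried over from earlier stages. Testes hold spermatids beside earlier germ cells and somatic cells, and in such bulk samples fewer cells of a type and less RNA per cell cannot be told apart.

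The 4 control sperm pools were the shallowest libraries. Their expected counts summed to between 366455 and 1058017, against 1155491 and 1254477 in cadmium sperm and 2606086 to 2866856 in the testes samples. The study reports that sperm RNA was mostly of small sizes and lacked the ribosomal RNA peaks seen in testes. Sperm and testes thus also differed in RNA integrity, and its part in the comparisons below was not tested. By RT-PCR the study detected full-length Tssk6 mRNA in sperm. Its primer list also holds a qPCR pair for Tssk6. For RNAs drawn from those upregulated, it reports that qPCR in sperm and testes went the same way as sequencing. The text of the study does not name those RNAs. Markers of late spermatids were present in every sample. Their summed FPKM over 8 genes ran from 234.26 to 464.63 in control sperm pools 2 to 4 and from 469.43 to 571.48 in control testes. Between 2 and 6 of the 8 were above 0 in those pools, against 7 or 8 in control testes. Prm2, which encodes a protamine, was between 183.72 and 438.21 FPKM in the 6 sperm samples and made up most of the sums in pools 2 to 4. Prm1 was at 0 in control sperm pool 3 and at most 10.97 FPKM in pools 2 and 4, against 121.65 and 127.74 FPKM in control testes. In control sperm against control testes, log2 fold changes were -4.55 for Prm1 (edgeR adjusted p = 0.0155), -5.21 for Tnp1 (0.0165) and 0.34 for Prm2 (0.747). Odf1 was at 0 in pools 2 to 4. Kit, a marker of spermatogonia, was at 0 in all sperm samples but also in control testes, and Cdh1, a marker of epithelial cells, was at 0 in control sperm and at 0.20 and 0.54 FPKM in cadmium sperm. Cd4, a marker of T cells, was at 0.62 FPKM in control sperm pool 2 and at 1.69 and 1.04 FPKM in cadmium sperm. Markers of spermatocytes were at 0 in all control sperm pools, while those of the epididymis summed to 3.09 and 9.58 FPKM in replicate 2 of control and cadmium testes against 0.10 and 0.26 in replicate 1. These marker levels were not tested against the results below.

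Tssk1 and Tssk2 lie next to each other on the plus strand of chromosome 16, 2983 bases apart with no other annotated gene between them (GRCm38). The genomic span of each equals the length of its mRNA, 1451 bases for Tssk1 (NM_009435, chr16:17894203-17895653) and 1388 bases for Tssk2 (NM_009436, chr16:17898637-17900024), so neither has an intron. Tssk6 (NM_032004) is likewise without introns, spanning 1335 bases on the plus strand at chr8:69902184-69903518. Its first 375 bases overlap Ndufa13, a gene of mitochondrial complex I on the opposite strand. The other members are spliced: Tssk3 at chr4:129489008-129491730, Tssk4 at chr14:55643651-55652539, Tssk5 at chr15:76371958-76375191 and Tsks at chr7:44929472-44958041. By whole gene spans, Tssk3 overlaps Fam229a by 541 bases, Tssk4 overlaps Tm9sf1 by 156 bases and Tsks overlaps Ap2a1 by 19 bases. Each neighbour lies on the opposite strand. Whether the listed mRNAs of Tssk3, Tssk4 and Tsks reach these overlaps was not examined. Whether strand was used in counting, and how fragments shared by the similar Tssk1 and Tssk2 were divided, is not given in the sources used here, so values of overlapping genes are uncertain.

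The 250 bases before an annotated start were taken from RefSeq (GRCm38) for 6 of the 7 members, Tssk5 being the other. For Tssk3, Tssk4 and Tsks this start lies inside the gene span and past the overlap given above. An mRNA from it would not reach the neighbour, and the bases before the outermost start were not searched. The windows of the neighbours Tssk1 and Tssk2 and of Tssk6 are shown because these 3 intronless kinases had the highest levels of the family. Capitals mark matches on either strand to TGACNTCA, a form of the CRE element with 1 free base, which was searched for after the sequences had been read.

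Tssk1, chr16:17893953-17894202, plus strand: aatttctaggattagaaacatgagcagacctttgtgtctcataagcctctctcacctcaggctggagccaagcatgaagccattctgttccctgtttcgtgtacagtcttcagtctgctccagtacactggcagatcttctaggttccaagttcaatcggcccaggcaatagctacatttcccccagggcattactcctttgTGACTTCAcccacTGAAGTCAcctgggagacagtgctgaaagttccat
Tssk2, chr16:17898387-17898636, plus strand: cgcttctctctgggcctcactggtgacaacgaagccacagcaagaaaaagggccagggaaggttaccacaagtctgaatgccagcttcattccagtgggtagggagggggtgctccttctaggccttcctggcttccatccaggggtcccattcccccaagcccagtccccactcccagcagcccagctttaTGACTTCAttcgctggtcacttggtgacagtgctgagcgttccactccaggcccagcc
Tssk6, chr8:69901934-69902183, plus strand: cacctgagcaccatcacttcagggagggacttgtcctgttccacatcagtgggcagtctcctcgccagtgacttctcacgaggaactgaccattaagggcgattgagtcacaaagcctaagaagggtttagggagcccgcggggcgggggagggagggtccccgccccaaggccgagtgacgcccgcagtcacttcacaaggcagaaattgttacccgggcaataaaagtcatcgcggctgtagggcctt

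Tssk1 held 2 matches to TGACNTCA, 48 to 41 and 35 to 28 bases before its start, and Tssk2 held 1, 58 to 51 bases before its start. At least 1 such match was found in 7.49% of 32851 RefSeq windows of the same length. The unbroken palindrome TGACGTCA, present in 1.55% of windows, was not found in the 6 windows, nor was TATAAA, present in 12.4%. The Tssk6 window held 2 matches to GGGCGG on either strand, a sequence found in 32.7% of windows. CCAAT, found in 33.8% of windows, had a match in Tssk3 and in Tssk4. A match is a run of letters and no binding was measured here.

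Tssk1 was the most abundant kinase of the family in 9 of 10 samples. It was listed at 113.30, 60.27 and 119.51 FPKM in control sperm pools 2, 3 and 4, at 199.05 FPKM in pool 1, and at 62.63 and 41.80 FPKM in control testes. In cadmium sperm it was at 156.73 and 91.72 FPKM and in cadmium testes at 51.94 and 39.94 FPKM. All sperm samples lay above the testes samples except control sperm pool 3, which lay between the values of control testes 1 and 2. Over all RefSeq mRNA genes of a sample, Tssk1 ranked between 20 and 80 in the sperm samples and between 83 and 168 in the testes samples.

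Tssk2, its neighbour, was far below it in every sample. It was at 13.26, 2.04 and 7.27 FPKM in control sperm pools 2, 3 and 4, at 0 in pool 1, and at 7.0 and 6.87 FPKM in control testes. Cadmium sperm held 9.58 and 10.61 FPKM and cadmium testes 6.80 and 6.05 FPKM. The testes samples were close to one another, and the control sperm pools spread on both sides of them. The ratio of Tssk1 to Tssk2 in FPKM was 7.52 ± 2.02 (SD, n = 2) in control testes and 7.12 ± 0.73 (SD, n = 2) in cadmium testes, against 18.2 ± 10.6 (SD, n = 3) in control sperm and 12.5 ± 5.46 (SD, n = 2) in cadmium sperm. The pool with a Tssk2 count of 1 carried the highest ratio, 29.5.

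Tssk6 varied widely among the sperm pools. It was at 21.79, 167.49 and 40.89 FPKM in control sperm pools 2, 3 and 4, at 12.77 FPKM in pool 1, and at 6.48 and 8.64 FPKM in control testes. Cadmium sperm held 35.89 and 32.50 FPKM and cadmium testes 8.99 and 10.60 FPKM. Every sperm sample lay above every testes sample, and control sperm pool 3, the shallowest library, was the only sample in which Tssk6 exceeded Tssk1. The count behind that value was 79, or 216 counts for each 1000000 of the library (CPM) with an exact binomial 95% interval (Clopper-Pearson) of 171 to 269, and pool 2 was at 28.4 CPM (19.1 to 40.5). Intervals and limits here cover counting error only.

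The remaining kinases and Tsks were near the limit of detection. Tssk3, a kinase expressed after meiosis, was at 1.06 and 3.51 FPKM in control testes and 0.71 and 1.87 FPKM in cadmium testes. It was at 1.89 FPKM in control sperm pool 2, at 0 in the other 3 pools, and at 4.33 and 1.60 FPKM in cadmium sperm, on counts of 2 to 9 wherever it was listed. Sperm and testes samples overlapped in both treatments.

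Tssk4 was at 0.58 and 0.64 FPKM in control testes and at 0 and 1.2 FPKM in cadmium testes, and Tssk5 at 0.24 and 0.26 FPKM in control testes and 0.24 and 0.75 FPKM in cadmium testes. Both were at 0 in all 6 sperm samples, where 3 counts would have been 2.39 to 8.19 CPM, above the highest testes values of 1.48 CPM for Tssk4 and 1.11 for Tssk5. A lower level in sperm was therefore not detectable at this depth, and no fold change is given. The transcript of Tssk4 listed was NM_027673 in control testes and NM_001253888 in cadmium testes 2.

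Tsks, the substrate, was at 2.54 and 1.29 FPKM in control testes and 3.34 and 2.89 FPKM in cadmium testes. It was at 1.58 FPKM in control sperm pool 2, at 0 in the other 3 pools, and at 0.96 and 2.22 FPKM in cadmium sperm. Tsks was thus listed in all testes samples but in 3 of 6 sperm samples, and 3 counts in the 3 empty pools would have been 5.90 to 8.19 CPM, against 2.30 and 4.53 CPM in control testes. A pair of isoforms of nearly equal length were listed in different samples, NM_011651 in control testes 1 and all sperm samples with a value, NM_001077591 in control testes 2 and cadmium testes 1, and both in cadmium testes 2.

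**Figure D1:**
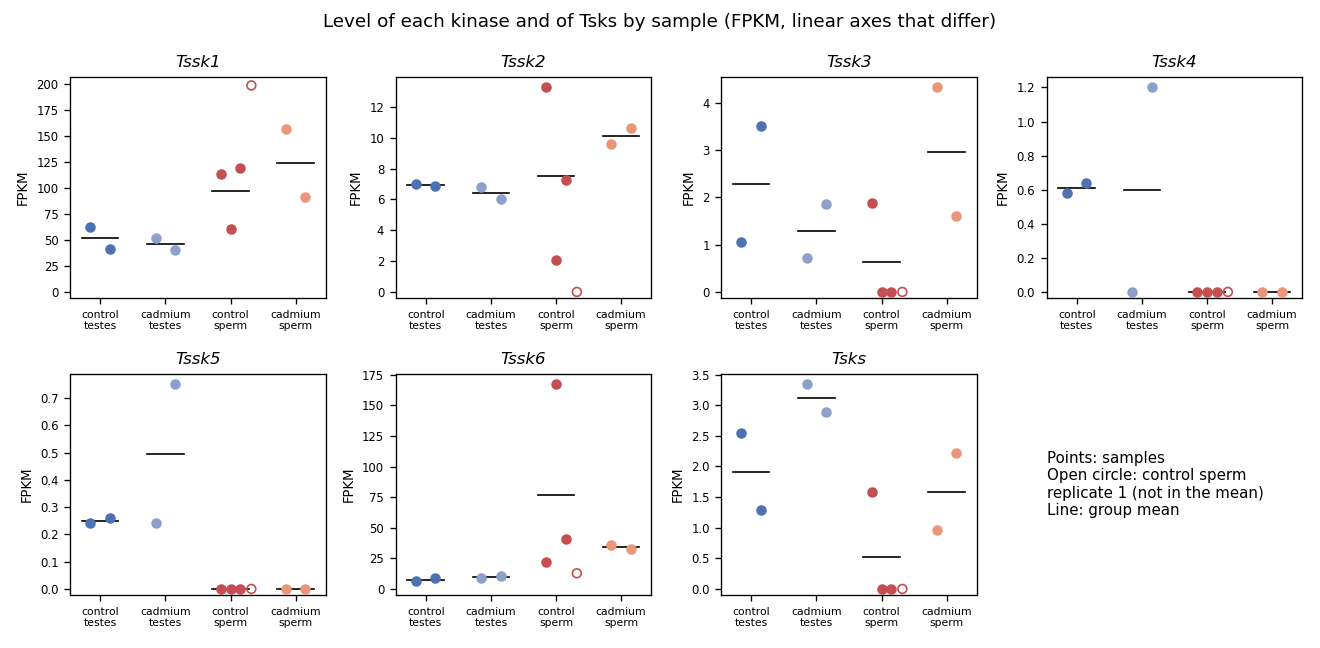
FPKM of each kinase and of Tsks in every sample (points; linear vertical axes that differ between genes) by group, with the group mean as a line and control sperm pool 1, which is not in the mean, as an open circle. Tssk6 lies between 12.77 and 167.49 in sperm and between 6.48 and 10.60 in testes, and Tssk4 and Tssk5 are at 0 in all sperm samples.

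Summed over Tssk1 to Tssk6, kinase FPKM came to 182.6 ± 41.8 (SD, n = 3) in control sperm and 69.9 ± 11.5 (SD, n = 2) in control testes, and to 171.5 ± 49.6 (SD, n = 2) in cadmium sperm and 64.5 ± 5.85 (SD, n = 2) in cadmium testes. Tssk1 made up 74.0 ± 8.90% (SD, n = 2) of this sum in control testes, 70.9 ± 6.73% (n = 2) in cadmium testes and 71.6 ± 6.12% (n = 2) in cadmium sperm. In control sperm its share was 57.6 ± 27.3% (SD, n = 3), since it was 75.4% in pool 2 and 71.3% in pool 4 but 26.2% in pool 3, where Tssk6 held 72.9%. Tssk6 held 11.2 ± 4.02% (n = 2) in control testes, 15.3 ± 3.15% (n = 2) in cadmium testes and 20.6 ± 4.56% (n = 2) in cadmium sperm. Tssk2 held 8.98 to 11.1% in the 4 testes samples and 0.888 to 8.83% in control sperm pools 2 to 4. The shares of Tssk3, Tssk4 and Tssk5 added little in any sample, the highest being 5.69% for Tssk3 in control testes 2. These shares are a description without a test.

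**Figure D2:**
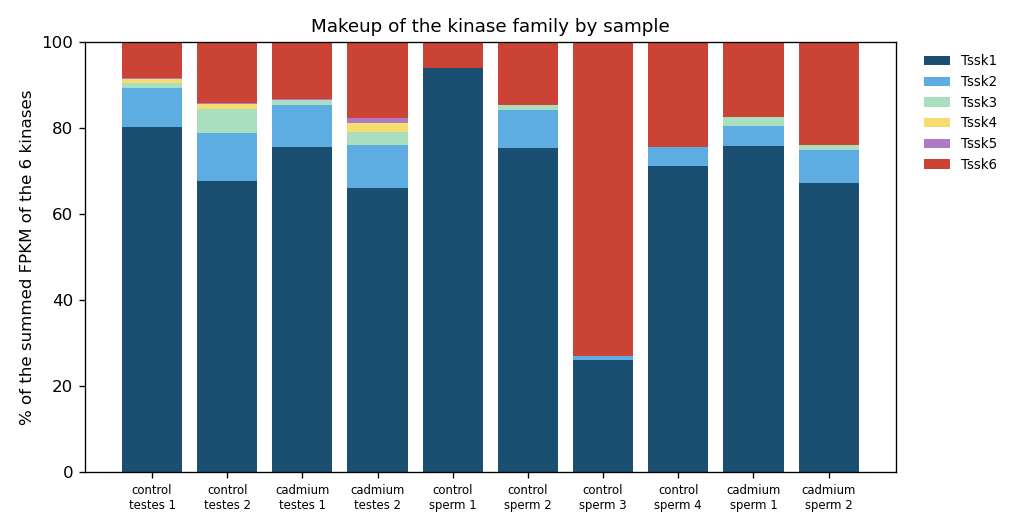
Share of each kinase in the summed FPKM of Tssk1 to Tssk6 (vertical axis, percent) in each of the 10 samples (bars). Tssk1 holds 66.1 to 94.0% in every sample except control sperm pool 3, where it holds 26.2% and Tssk6 holds 72.9%.

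To ask which members differ between mature sperm and the organ it comes from, control sperm was compared with control testes. Tssk6 was higher in sperm, at 76.7 ± 79.2 FPKM (SD, n = 3) against 7.56 ± 1.53 FPKM (SD, n = 2), with a log2 fold change of 2.88 ± 0.99 (standard error) and an edgeR adjusted p of 0.0451. A gene was called where its adjusted p was below 0.05 and its change exceeded 2-fold, and this was the only member called among the 5 that passed the filter of at least 1 FPKM in 2 samples, which Tssk4 and Tssk5 did not. Over all genes tested, 22% were called in this comparison, 4.19% higher and 17.8% lower in sperm, and over genes with RefSeq mRNAs 24.7% were called and 4.4% were called higher. The share of members called, 1 of 5, was near that background. The median log2 fold change of all genes was -1.24, or -0.56 with counts thinned to equal depth.

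The call of Tssk6 depended on single libraries. Without control sperm pool 3 its log2 fold change was 1.98 with an edgeR adjusted p of 0.0796, and without pool 2, pool 4, control testes 1 or control testes 2 it was 3.16, 3.07, 2.54 or 3.01 with edgeR adjusted p of 0.0767, 0.158, 0.405 or 0.315. It was called under 7 of 17 alternative settings, whose adjusted p ran from 0.0232 to 0.809. In pool 3 a Leydig cell list of 6 markers, 5 of them in the series, summed to 27.49 FPKM from 1 gene, Star, against 4.31 and 2.96 FPKM in pools 2 and 4 and 20.17 to 22.16 FPKM in control testes. Insl3, Hsd3b1 and Cyp11a1 were at 0 in that pool. The part of this in the Tssk6 value was not tested.

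The other members tested did not pass. Tssk1 had a log2 fold change of 0.77 ± 0.72 and an edgeR adjusted p of 0.464, with means of 97.7 ± 32.6 FPKM (SD, n = 3) in sperm and 52.2 ± 14.7 FPKM (SD, n = 2) in testes. Tssk2 was at 0.07 ± 1.38 on the log2 scale (edgeR adjusted p = 0.978), Tssk3 at -1.37 ± 1.29 (edgeR adjusted p = 0.463) and Tsks at -1.36 ± 1.36 (edgeR adjusted p = 0.495). The sign of the Tssk2 value turned under several settings. The FPKM of Tssk6 was the only one among the 5 members tested whose control sperm and control testes samples did not overlap with sperm higher, as for 7.52% of all genes, and no member was without overlap in the lower direction, as were 44.8% of all genes.

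After cadmium, the comparison of sperm with testes called 2 members, both higher in sperm. Tssk6 was at 34.2 ± 2.40 FPKM (SD, n = 2) against 9.79 ± 1.14 FPKM (SD, n = 2), with a log2 fold change of 2.03 ± 0.57 and an edgeR adjusted p of 0.00245. Tssk1 was at 124.2 ± 46.0 FPKM (SD, n = 2) against 45.9 ± 8.49 FPKM (SD, n = 2), with a log2 fold change of 1.67 ± 0.55 and an edgeR adjusted p of 0.0109. In this comparison 31.7% of all genes tested were called, 16.3% higher and 15.4% lower in sperm, and over genes with RefSeq mRNAs 39.7% were called and 20.8% were called higher.

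Tssk2 had a log2 fold change of 0.91 ± 0.66 (edgeR adjusted p = 0.296), Tssk3 of 1.35 ± 1.07 (edgeR adjusted p = 0.349) and Tsks of -0.67 ± 0.93 (edgeR adjusted p = 0.625). The samples of Tssk1, Tssk2 and Tssk6 did not overlap, with sperm higher, as for 24.6% of all genes, and those of Tsks did not overlap with sperm lower, as for 41.9%. Tssk6 was called under 13 of 15 alternative settings and Tssk1 under 8 of 15. Without cadmium testes 1 neither was called, with log2 fold changes of 1.56 and 1.50 and edgeR adjusted p of 0.181 and 0.183. Tssk1 was also lost without cadmium sperm 1 (log2 fold change 1.42, edgeR adjusted p = 0.0721) or cadmium testes 2 (1.59, edgeR adjusted p = 0.120).

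Tssk1 passed the test after cadmium and not in controls, but the difference between the sperm-to-testes changes after cadmium and after saline was itself tested and was 0.38 ± 0.97 on the log2 scale (edgeR adjusted p = 1.00). For Tssk6 that difference was -1.41 ± 1.18 (edgeR adjusted p = 1.00). All groups were fitted jointly here, with a filter and scaling over all of them. These values are therefore not the plain differences of the fold changes given above. The tested term is also the cadmium effect in sperm minus that in testes. Among 5 members none was called there, with unadjusted p of 0.234 to 0.929, and 0.0396% of all genes were called.

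**Figure D3:**
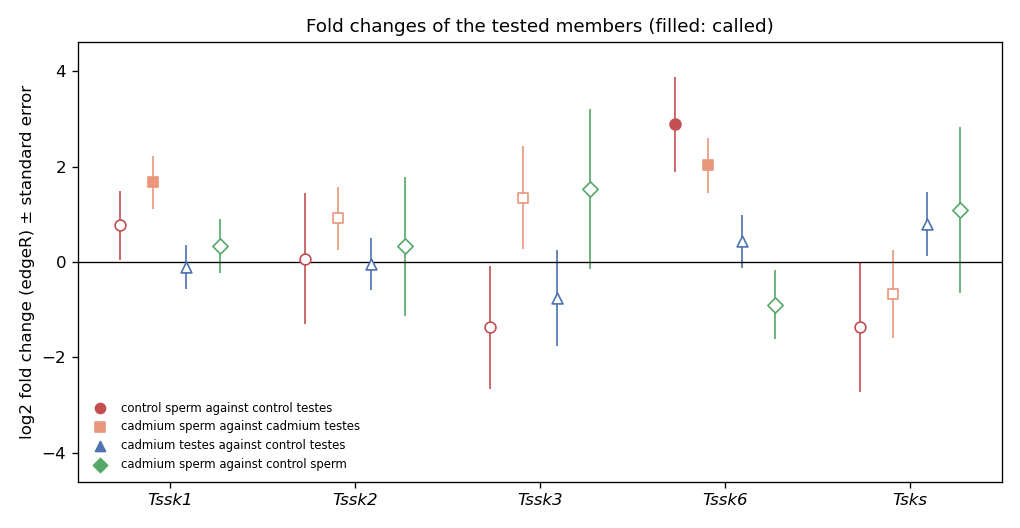
Log2 fold change of the 5 tested members (vertical axis, edgeR, bars show the standard error worked back from the test) in 4 comparisons (marker shape and colour), with filled markers for called members. Tssk6 is filled in both sperm-to-testes comparisons, at 2.88 and 2.03, Tssk1 only in that after cadmium, at 1.67, and none is filled for cadmium against control.

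The level of Ndufa13, which overlaps the start of Tssk6 on the opposite strand, was also examined because fragments of the shared 375 bases could be given to either gene. Ndufa13 was at 2071.81, 1395.11, 2127.23 and 2130.62 FPKM in control sperm pools 1 to 4 and at 707.87 and 899.79 FPKM in control testes. It was at 1732.92 and 1546.13 FPKM in cadmium sperm and at 794.93 and 1031.58 FPKM in cadmium testes. Like Tssk6, it was above every testes sample in every sperm sample, with log2 fold changes of 0.93 ± 0.46 in controls (edgeR adjusted p = 0.137) and 1.05 ± 0.68 after cadmium (edgeR adjusted p = 0.234). It was not called in either, but was called higher in control sperm under 4 of 17 alternative settings: with all 4 pools (edgeR adjusted p = 0.0336), with limma at either pseudocount (limma adjusted p of 0.0225 and 0.0275) and at equal depth (edgeR adjusted p = 0.0148). After cadmium it was called under 1 of 15, with the replicate number as a block (edgeR adjusted p = 0.0148). Tssk6 came to 0.915 to 1.13% of Ndufa13 in testes, to 2.07 and 2.10% in cadmium sperm, and to 0.616, 1.56, 7.87 and 1.92% in control sperm pools 1 to 4. Pools 1, 3 and 4 had nearly the same Ndufa13 level but Tssk6 levels from 12.77 to 167.49 FPKM. The part of the overlap in the Tssk6 values was not tested.

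**Figure D4:**
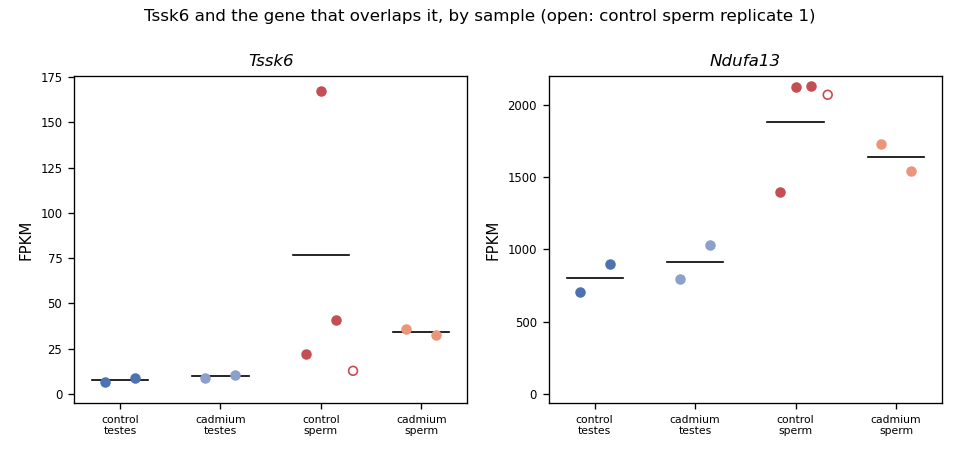
FPKM of Tssk6 (left) and of Ndufa13, which overlaps it on the opposite strand (right), in every sample, with group means as lines and control sperm pool 1 as an open circle. Control sperm pools 3 and 4 hold 2127.23 and 2130.62 FPKM of Ndufa13 but 167.49 and 40.89 FPKM of Tssk6.

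The cadmium comparisons, which share their control samples with the comparison of sperm and testes in controls, called none of the members. In testes, where 0.0225% of all genes were called, the log2 fold changes of cadmium against control were 0.80 ± 0.67 for Tsks, 0.43 ± 0.55 for Tssk6, -0.05 ± 0.55 for Tssk2, -0.10 ± 0.46 for Tssk1 and -0.75 ± 1.01 for Tssk3. All 5 had an edgeR adjusted p of 1.00, with unadjusted p of 0.249 to 0.934. Tssk6 and Tsks were higher in both cadmium samples than in both control samples, which held for 8.19% of all genes, and Tssk2 was lower, which held for 9.99%.

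In sperm, where 0.0824% of all genes were called, the values were 1.53 ± 1.67 for Tssk3, 1.10 ± 1.74 for Tsks, 0.34 ± 0.56 for Tssk1, 0.33 ± 1.46 for Tssk2 and -0.90 ± 0.73 for Tssk6. All 5 had an edgeR adjusted p of 1.00, with unadjusted p of 0.217 to 0.822. The cadmium and control sperm samples overlapped for each of the 5 members, whereas they did not for 21.7% of all genes with cadmium higher and for 1.86% with cadmium lower. The Tssk6 value rested on pool 3, without which it was 0.074 (edgeR adjusted p = 0.998). Leukocyte markers summed to 1.70 and 4.85 FPKM in cadmium sperm against 0 to 0.62 FPKM in control sperm. Epididymis markers summed to 3.08 and 4.05 FPKM in cadmium sperm, from 3 of 6 genes in each sample, against 0 to 2.85 FPKM from at most 1 gene in control sperm. Among them Crisp1, a secreted protein of the epididymis, was at 2.50 and 2.31 FPKM on 4 counts each in cadmium sperm and at 0 in all 4 control pools. The part of these markers in the members' values was not tested.

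Genes that act with the family were taken as a list of 10 partners, chaperones and substrates. In control sperm against control testes, 6 of 10 were tested and 1 was called, Hsp90aa1, which encodes an HSP90 chaperone, a class that holds TSSK proteins in a stable form. It was at 1.07, 0 and 0.70 FPKM in control sperm pools 2, 3 and 4 and at 13.13 and 55.40 FPKM in control testes, a log2 fold change of -5.87 ± 1.11 with an edgeR adjusted p of 5.5e-05. The samples did not overlap, as for 44.8% of all genes in the lower direction, and the sperm level rested on 4.2 counts over the 3 pools. The call was lost without control testes 2, where the value was -4.54. Hsp90ab1, the other HSP90 gene of the list, was not called, at -1.85 ± 1.31 (edgeR adjusted p = 0.312). It reached 3.97 FPKM in control sperm, overlapping the 3.67 to 13.22 FPKM of control testes. The list had a median log2 fold change of -2.67 over the 6 tested, beside -1.24 over all genes, a value that moved with the setting.

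In cadmium sperm Hsp90aa1 was at 22.03 and 10.44 FPKM, overlapping the 13.86 and 46.06 FPKM of cadmium testes, and it was not called. There 1 of 6 partners tested was called, Ppp1cc, which encodes a protein phosphatase subunit that TSKS binds in the testis. It was at 28.94 and 14.37 FPKM in cadmium sperm and 3.51 and 3.74 FPKM in cadmium testes, a log2 fold change of 2.76 ± 0.59 with an edgeR adjusted p of 3.5e-05. Without cadmium testes 1 that value was 2.35 with an edgeR adjusted p of 0.101. In control sperm Ppp1cc spread from 0 in pool 3 to 16.73 FPKM in pool 2, on both sides of the 5.81 and 3.45 FPKM of control testes.

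Odf2, an outer dense fibre protein of the sperm tail, was listed in all 10 samples, at 12.16 to 32.50 FPKM in control sperm, 25.46 and 35.37 FPKM in cadmium sperm and 27.58 to 57.98 FPKM in testes. Tsacc, a co-chaperone of the family, was listed in all testes samples, at 0.86 to 3.25 FPKM, and at 0 in all 6 sperm samples, on 5 counts in all in each pair of testes samples, too few for a fold. Crem, a transcription factor of post-meiotic germ cells, was at 0 in all control sperm pools, at 0.16 to 0.79 FPKM in testes, and at 0 and 1.13 FPKM in cadmium sperm, the latter on 2 counts. None of the 7 partners tested in testes and none of the 6 tested in sperm was called for cadmium against control.

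The partner furthest apart between cadmium and control sperm was Hsp90aa1, whose 22.03 and 10.44 FPKM after cadmium lay above the 0 to 1.07 FPKM of every control pool. Its log2 fold change was 4.46 ± 1.34, with an unadjusted p of 0.000887 and an edgeR adjusted p of 0.469. It was called under 2 of 17 alternative settings, in 1 model of 9 samples (edgeR adjusted p = 0.0109) and without control sperm pool 3 (edgeR adjusted p = 0.00863). The difference between its cadmium effects in sperm and in testes was 4.56 ± 1.29 (edgeR adjusted p = 0.328) and was called under 1 of 20, with all 4 pools and the replicate number as a block (edgeR adjusted p = 0.0262). The leukocyte and epididymis markers given above moved between the same samples, and their part in this value was not tested.

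**Figure D5:**
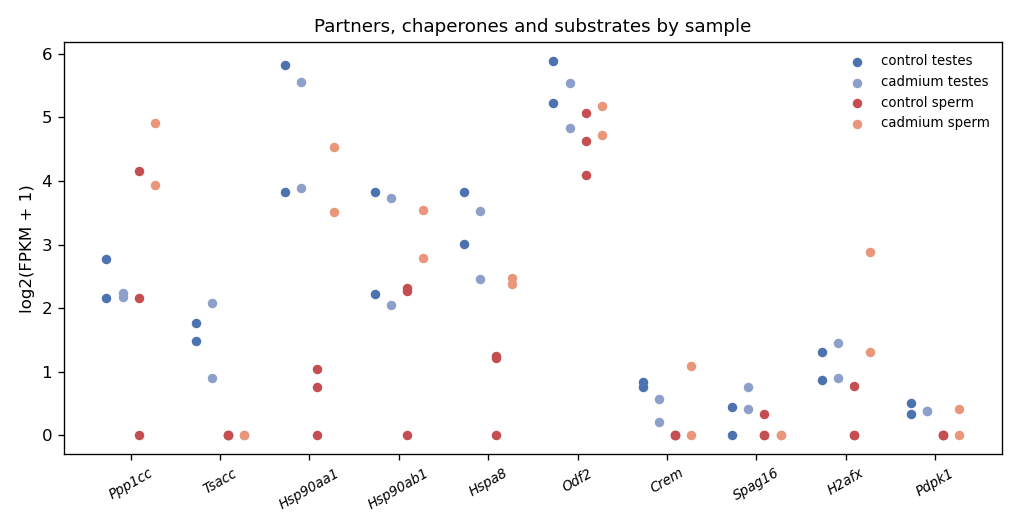
Level of the 10 partners, chaperones and substrates, as log2(FPKM + 1), in the 9 samples used for group means (points, coloured by group, with control sperm pool 1 left out). Hsp90aa1 is at 0 to 1.07 FPKM in control sperm and at 10.44 and 22.03 FPKM in cadmium sperm, and Tsacc is at 0 in all sperm samples.

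The AMPK-related kinases, the nearest relatives of the family, gave another 17 genes, 16 of them in the series. In control sperm against control testes 6 were tested, 3 were called and all 3 were lower in sperm. Snrk fell from 17.96 and 25.00 FPKM in testes to 3.93, 0 and 4.11 FPKM in pools 2, 3 and 4 (log2 fold change -3.10 ± 0.91, edgeR adjusted p = 0.0167), and Hunk from 8.32 and 15.17 FPKM to 1.32, 0 and 2.36 FPKM (-3.41 ± 1.09, edgeR adjusted p = 0.0306). Sik2 was at 3.96 and 5.67 FPKM in testes and at 0 in every control sperm pool, at least 10.8-fold lower at 3 counts over the 3 pools (edgeR adjusted p = 0.0228). These calls also rested on single libraries. Snrk was lost without pool 2, pool 4 or control testes 2 (edgeR adjusted p of 0.0767 to 0.332), Hunk without pool 2, pool 4 or either testes sample (0.0767 to 0.806) and Sik2 without pool 2 or pool 4 (0.0741 and 0.109). Over all alternative settings in which they were tested, Snrk was called in 9 of 17, Hunk in 8 of 17 and Sik2 in 10 of 15. After cadmium 7 were tested and 5 were called: Snrk, Hunk and Sik2 lower again, with log2 fold changes of -2.14, -3.85 and -2.56, and Mark2 and Prkaa2 higher, at 1.96 and 5.16. Hunk was called without any 1 sample, while Snrk was lost without cadmium testes 2 (edgeR adjusted p = 0.0626), Sik2 without cadmium sperm 1 (0.160), Prkaa2 without cadmium testes 1 (0.0611) and Mark2 without either testes sample (0.231 and 0.291). Over all alternative settings Hunk was called in 15 of 15, Snrk in 14 of 15, Prkaa2 in 12 of 13, Sik2 in 8 of 13 and Mark2 in 3 of 13. Mark2 and Prkaa2 fell outside the rule for named genes and were named after their values were seen. They were at most 0.86 and 0.1 FPKM in cadmium testes and passed the filter only through cadmium sperm. Their direction was thus fixed beforehand, as was that of Sik2, at most 0.68 FPKM in cadmium sperm.

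Of 16 other protein kinases and anchors of male germ cells, 9 were tested in controls and 2 were called, both lower in sperm. Nek2, a mitotic and meiotic kinase, was at 1.87 and 1.58 FPKM in testes and at 0 in control sperm, at least 3.53-fold lower (edgeR adjusted p = 0.0465), and Prkar1a, a regulatory subunit of protein kinase A, was at 1.00 and 1.33 FPKM and at 0, at least 2.59-fold lower (edgeR adjusted p = 0.0465). Both were lost without pool 2, 3 or 4, with edgeR adjusted p of 0.0767 to 0.174, and over all alternative settings Nek2 was called in 7 of 14 and Prkar1a in 6 of 14. Gsk3a, the most abundant of the list in testes, was at 14.76 and 24.40 FPKM there and at 6.78, 17.25 and 5.30 FPKM in pools 2, 3 and 4, and Prkar2a at 2.43 and 5.17 FPKM and at 4.23, 0 and 3.91 FPKM. Neither was called. After cadmium 8 were tested and 5 were called. Akap3, Nek2 and Stk33 were at 0 in cadmium sperm, at least 8.10-fold, 4.34-fold and 2.89-fold lower than in cadmium testes, and Akap4 was lower by a log2 fold change of -3.51, while Csnk2a2 was higher by 2.80. Akap4 was lost without cadmium sperm 2 (edgeR adjusted p = 0.0778), Csnk2a2 without cadmium testes 1 (0.140) and Stk33 without either sperm sample (0.0820 and 0.0937). Over all alternative settings Akap3 was called in 13 of 13, Nek2 in 11 of 12, Csnk2a2 in 11 of 15, Akap4 in 10 of 13 and Stk33 in 6 of 12. In controls, where Akap3, Akap4, Csnk2a2 and Prkaa2 were not called, each was called under 3 alternative settings. Akap3, Stk33, Akap4 and Csnk2a2 were named after their values were seen. No relative and no other germ cell kinase was called for cadmium against control in either tissue.

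Beside the background of 22% called in controls, the calls were 1 of 5 members, 1 of 6 partners, 3 of 6 relatives and 2 of 9 other kinases. After cadmium they were 2 of 5, 1 of 6, 5 of 7 and 5 of 8 beside 31.7%. Over genes with RefSeq mRNAs, as the members are, the background was 24.7% in controls and 39.7% after cadmium. The called members were higher in sperm in both comparisons, while all 6 called genes of the other lists were lower in control sperm and 7 of 11 were lower in cadmium sperm. Of these, Sik2, Nek2 and Prkar1a were at 0 in control sperm, and Akap3, Nek2 and Stk33 at 0 in cadmium sperm. Such genes passed the filter only through testes, so their direction was fixed beforehand and says nothing beside that of the members. The same held after cadmium for Akap4 and Sik2, at most 0.61 and 0.68 FPKM in sperm. Hunk after cadmium and Hsp90aa1 in controls reached 1 FPKM in only 1 sperm sample each, so they also passed through testes. Mark2 and Prkaa2 passed only through cadmium sperm. The counts of direction above therefore set no contrast with the members. The members had a median log2 fold change of 0.07 in controls and 1.35 after cadmium, beside -1.24 and -0.29 for all genes tested. The medians of all genes moved with the setting. They were -0.56 and -0.10 with counts thinned to equal depth, and -1.72 and -1.32 with no filter.

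Across the 10 samples, the genes whose log2(FPKM + 1) was most like that of each member were found by Pearson's r among 6680 genes. Btbd17 (r = 0.979) and Rabac1 (r = 0.967) were most like Tssk1, Nfil3 and Rpl29 (r = 0.933 each) most like Tssk2, and Cdkn2aip (r = 0.95) and Ube2d1 (r = 0.949) most like Tssk6. Fbxo4 (r = 0.975) and Chmp3 (r = 0.964) were most like Tssk3, and Lrrc51 (r = 0.990) and 1700037C18Rik (r = 0.981) most like Tsks. 1700024G13Rik (r = 1.00) and Cypt3 (r = 0.998) were most like Tssk4, and Art3 (r = 0.977) and 1700011I03Rik (r = 0.975) most like Tssk5. The samples share tissue and depth, the values of Tssk3, Tssk4, Tssk5 and Tsks rest on few counts, and these values are given as a description with no test.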

How the data were processed

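Reads were cleaned of adaptors and of low quality by the authors and aligned with SOAPaligner/SOAP2, and the processing notes of the submitters also name HISAT and mm10. For each sample the authors deposited an estimated count, without normalization, and an FPKM, relative to length and depth, of all transcripts detected. The tool behind the counts and its use of strand are not given in the sources used here. A gene absent from a table was taken as 0. Depth and the limit of 3 counts are given beside the results.

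Counts were summed by gene, rounded and tested with edgeR 4.0.16 (quasi-likelihood, TMM, Benjamini-Hochberg) in R 4.3.3 over genes of at least 1 FPKM in 2 samples of the comparison. Genes were called at an adjusted p under 0.05 and more than 2-fold. The standard error is the log2 fold change over the square root of F, not a spread between samples. DESeq2 1.42.0, limma 3.58.1 and other settings were alternatives. Python 3.11.15, numpy 2.4.6, pandas 2.3.3, scipy 1.17.1 and matplotlib 3.10.9 gave the rest. Positions and sequences are RefSeq's for GRCm38.

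Members and lists were chosen with earlier results of these data known. Named were all members, partners that bear on a result, the 2 relatives and 2 other kinases highest in testes or with the smallest adjusted p in controls, and 2 genes most like each member. The FPKM column of the files was used for levels and the counts for tests. Samples were grouped by tissue and injection from their titles. Replicate numbers were not shown to mark shared mice, so no pairing entered the main tests.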

Additional observations from a re-analysis of the deposited data

Results flagged for a closer look

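In the 4 control sperm pools, some values stood apart from the others by Dixon's test, which sets the gap from a value to its nearest neighbour against the whole range. Tssk3 was at 1.89 FPKM in pool 2 and at 0 in the other 3 pools, and so made up 1.26% of the kinase FPKM there and 0 elsewhere. Tsks was at 1.58 FPKM in pool 2 and at 0 in the other 3 pools. With 3 pools at 0, any value above 0 in the fourth passes this test, so these entries show only that the genes were listed in pool 2, on counts of 2 and 3, and pool 2 was the deepest of the 4. Ndufa13 was lower in pool 2, at 1395.11 FPKM, than in the others, at 2071.81 to 2130.62 FPKM. Where values are not at 0, chance alone flags about 1 in 20 groups. Tssk6 in pool 3 had a gap of 0.818 of the range, just under the 95% critical value. No member's cadmium effect differed between sperm and testes by the test of that difference.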

How the results depend on the processing

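Results were computed again with other scalings, filters, tests and sets of samples, all listed beforehand. An alternative without the 2-fold threshold reused the main fit, so every gene called in the main test was called there by construction. The counts of alternatives given here and above include it. Of the members, 1 was called in control sperm against control testes, and 0 with RefSeq mRNA genes alone, with no filter, with limma at either pseudocount, or without any 1 replicate (0 to 0). In cadmium sperm against cadmium testes 2 were called, but 1 with no filter or with limma at either pseudocount, 0 in 1 model of 9 samples, and 0 to 2 without 1 replicate. No member was called for cadmium against control, or for the difference between tissues, under any setting.

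Of all genes, 5373 were called in control sperm against control testes, but 1214 with RefSeq mRNA genes alone, 1344 with no filter, 2627 with filterByExpr, 3315 with DESeq2, 1345 at equal depth and 880 to 4335 without 1 replicate. In cadmium against control testes 6 were called, but 0 with RefSeq mRNA genes alone or with limma, 88 with no filter, 3 with filterByExpr or 1 model of 9 samples, and 4 to 29 without 1 replicate. In cadmium against control sperm 17 were called, but 9 with relative log expression size factors, 3 with RefSeq mRNA genes alone or filterByExpr, 11 with DESeq2, 0 with limma at a pseudocount of 1, 1168 at 0.1 and 7 to 42 without 1 replicate. In cadmium sperm against cadmium testes 8168 were called, but 2290 with RefSeq mRNA genes alone, 5090 with DESeq2, 4272 in 1 model of 9 samples and 1619 to 5255 without 1 replicate. For the difference of the cadmium effects 13 were called, but 3 with relative log expression size factors, 0 with RefSeq mRNA genes alone, DESeq2 or limma, 1 with filterByExpr, 6 at equal depth and 0 to 26 without 1 replicate. RefSeq mRNA genes alone are fewer genes tested. The cause of the other changes was not tested.

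With the replicate number as a block, genes called came to 1404 in control sperm against testes with all 4 pools, where 0 members were called and Tssk6 was at 1.29 (edgeR adjusted p = 0.809), to 89 in cadmium against control testes, and to 25 for the difference of the effects with all 4 pools. The block kept 2 members called in cadmium sperm against cadmium testes. Deviations of same-numbered samples correlated at 0.52 between control and cadmium testes and at 0.10 between cadmium sperm and either testes group. With 2 samples in a group their deviations mirror each other, so both numbers give the same value. Between control sperm and control testes, which share mice, the values were -0.010 and -0.079 for numbers 1 and 2. Nothing says that a number marks shared mice.

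Some log2 fold changes of members that were not called turned sign. In control sperm against testes Tssk2 was at -0.035 with all 4 pools, -7.3e-05 with filterByExpr, -0.16 and -0.24 with limma at pseudocounts of 1 and 0.1, -0.63 with all 4 pools and the block together, and -0.86 to 0.73 without 1 replicate. Without 1 replicate, in cadmium against control testes Tssk2 ran from -0.22 to 0.15 and Tssk3 from -1.76 to 0.55. In cadmium against control sperm Tssk1 ran from -0.050 to 0.60, Tssk2 from -0.20 to 1.22 and Tssk6 from -1.31 to 0.074, and with all 4 pools and the block together Tssk1 was at -0.27 and Tssk6 at 1.04, against 0.12 and -0.56 with all 4 pools alone, while Tssk2 was at -0.31 at equal depth. For the difference of the effects Tssk2 ran from -0.10 to 1.70 and Tsks from -0.36 to 4.79, and with all 4 pools and the block together Tssk1 was at -0.18, Tssk6 at 0.59 and Tsks at -0.15, against 0.20, -0.98 and 0.55 with all 4 pools alone. The share of Tssk2 among kinases in cadmium testes was 9.75% by counts and 9.96% by FPKM. Depth limits Tssk3, Tssk4, Tssk5 and Tsks in sperm. Over the members in every comparison and the other genes where a fold change or a bound is given above, and counting each gene, comparison and alternative once, 599 fold changes kept direction and call, 91 kept direction and lost the call, 8 gained it and 24 turned sign.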
